A study of Mus musculus with 8 samples.

Results

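The genes described are the cytosolic ribosomal protein genes of mouse microglia, the protein part of the ribosome that works in the cytoplasm. A gene was taken as a member when its symbol was Rpl or Rps followed by a number and at most 2 further letters or digits, or was Rplp0, Rplp1, Rplp2 or Rpsa. Rps6k kinases and genes with -ps symbols, which are named pseudogenes, were left out. The rule found 45 genes among 30768 genes named on the array, 19 of the small and 26 of the large subunit, on 51 probe sets. RefSeq holds 93 mouse symbols that match the rule, and 48 of them were not named alone by a probe set, 40 of these because the probe set also names other genes.

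The study measured RNA of microglia, the macrophages that live in brain and spinal cord, on 8 Affymetrix arrays that cross 2 genotypes with 4 states. The icKO mice carry a conditional deletion of connexin 47, a gap junction protein, directed at oligodendroglia by the series title, and the control mice are labelled FL or F/F, in 1 state also wt. The states are naive, experimental autoimmune encephalomyelitis (EAE, an induced inflammation of the nervous system), EAE with iguratimod (an anti-inflammatory drug), and EAE labelled p50, a term the labels do not explain. All arrays are labelled with the strain C57Black/6J. There is 1 array for each genotype and state, and the labels give neither the age nor the number of animals behind an array. The promoter that drives the deletion is not stated there, and no value for the connexin 47 gene was analysed here.

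Ribosomal proteins are made in the cytoplasm, carried to the nucleolus and built with ribosomal RNA into a small subunit, which reads the mRNA, and a large subunit, which joins the amino acids. Many of their mRNAs begin with a C followed by a run of pyrimidines, the 5' terminal oligopyrimidine (TOP) tract, which couples their translation to mTOR signalling through the binding protein LARP1. Cells that grow or become active make more ribosomes, and several ribosomal proteins that are left unassembled bind MDM2 and so act on p53.

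Start-site sequences are shown for 8 members because the TOP tract is the element these mRNAs are known to share. Each line gives 30 bases around the start annotated by RefSeq on build GRCm38.p6, read along the gene's strand, with a tract of a C and at least 4 further pyrimidines in capitals. The 6 with a tract are Rpl35 (chr2:39005117-39005146, minus strand), Rps26 (chr10:128626492-128626521, minus strand), Rpl12 (chr2:32961697-32961726, plus strand), Rpl38 (chr11:114668565-114668594, plus strand), Rps10 (chr17:27635230-27635259, minus strand) and Rpl22l1 (chr3:28805493-28805522, plus strand). The 2 without one are Rpsa (chr9:120127751-120127780, plus strand) and Rps15 (chr10:80292416-80292445, plus strand).
Rpl35: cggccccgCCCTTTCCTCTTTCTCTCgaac
Rps26: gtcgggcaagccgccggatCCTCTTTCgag
Rpl12: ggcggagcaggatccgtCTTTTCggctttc
Rpl38: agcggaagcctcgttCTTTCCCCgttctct
Rps10: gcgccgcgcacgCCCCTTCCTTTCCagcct
Rpl22l1: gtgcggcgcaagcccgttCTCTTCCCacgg
Rpsa: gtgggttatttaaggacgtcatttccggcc
Rps15: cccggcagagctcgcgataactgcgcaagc

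A tract beginning within 10 bases of an annotated start was found for 23 of the 36 members with a RefSeq window (63.9%), against 34.4% of 27025 mouse genes searched the same way on the gene's strand alone. Counting only tracts at the annotated start itself, the shares were 13.9% of members (5 genes) and 3.01% of all genes. Annotated starts can differ from the starts used in microglia, and a window without the letters says nothing about the mRNA.

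Levels are log2(intensity + 16) of the gene's brightest probe set, and differences are in log2 units on that scale, so that 1 unit is close to a doubling of intensity for bright probe sets and more than a doubling for dim ones. Genes entered the tests if any array had them above the 50th percentile of the named probe sets, as held for 43 members and 18259 genes in all. The members that did not pass were Rpl10l and Rpl3l, paralogs known from testis and striated muscle, with levels between 6.81 and 7.46. A difference was called when its adjusted p fell below 0.05 in limma, fitted to all 8 arrays with state and genotype as additive terms and adjusted by Benjamini-Hochberg over all genes tested. With 1 array per group, the only spread such a fit can measure is how far state and genotype fail to add up, so p-values describe the spread between these arrays and their small number limits the precision. Brightness is not comparable between probe sets, so members are compared by their differences alone.

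Array medians lay between 243 and 269 intensity units, and 2 to 6 members per array stood above 65535, the limit of a 16-bit scan, and were kept as deposited. The microglia markers were bright on all arrays (Cx3cr1 between 18.15 and 18.43), and 0 of 11 were called in EAE. Their differences ran from -1.48 to 0.49 with a median of -0.06, and 4 had an unadjusted p under 0.05 in limma. The median was 0.02 in control and -0.37 in icKO mice. Their intensities summed to 526936 and 582742 in the naive control and icKO, and to 530395 and 451556 in EAE. The 10 oligodendrocyte markers summed to between 1771 and 1931 intensity units. Of the lists for other cells, 3 of 9 monocyte markers rose (Ly6c2, Ms4a4c and Chil3), 2 of 3 endothelial ones (Ly6c1 and Slc2a1), and 0 of 4 for T cells, 0 of 2 for B cells, 0 of 3 for astrocytes and 0 of 1 for oligodendrocytes. Of 9 neutrophil markers 0 passed, at a median difference of 3.56, and the array sums were far apart. Their 10 intensities summed to 25710 and 6364 in the naive control and icKO, 900220 and 103305 in EAE, 40568 and 132446 with iguratimod and 6112 and 12919 on the p50 arrays. The 9 monocyte markers summed to 3720 and 2806, 27470 and 29751, 5546 and 12798, and 3827 and 4950 in the same order. Xist, the RNA of the inactive X chromosome of females, was bright on the p50 pair (15.90 and 16.64) and dim on the other 6 arrays, which ranged from 7.71 to 8.30.

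In EAE the ribosomal protein genes were higher than in naive microglia. Of the 43 tested, 19 rose and 0 fell (44.2%), against 3.33% of all genes tested that rose and 0.383% that fell. The median difference of the members was 0.88, and that of all genes was 0.01. Both EAE arrays lay above both naive arrays for 39 members (90.7%), which held for 29.5% of all genes. Both lay below for 2 members that RefSeq lists as pseudogenes, Rpl6l and Rps4l, and for 22.5% of all genes. At an unadjusted p under 0.05 in limma, 35 members were higher (81.4%, all genes 13%) and 1 was lower (2.33%, all genes 6.16%). In bulk RNA, a change in the mix of cells and a change in the RNA per cell cannot be told apart. The neutrophil and monocyte sums given above moved with EAE too, and their part in the rise was not tested. The median member difference was 1.07 in control and 0.78 in icKO mice, that of the neutrophil markers 4.55 and 2.62, and that of the monocyte markers 1.29 and 2.84.

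**Figure D1:**
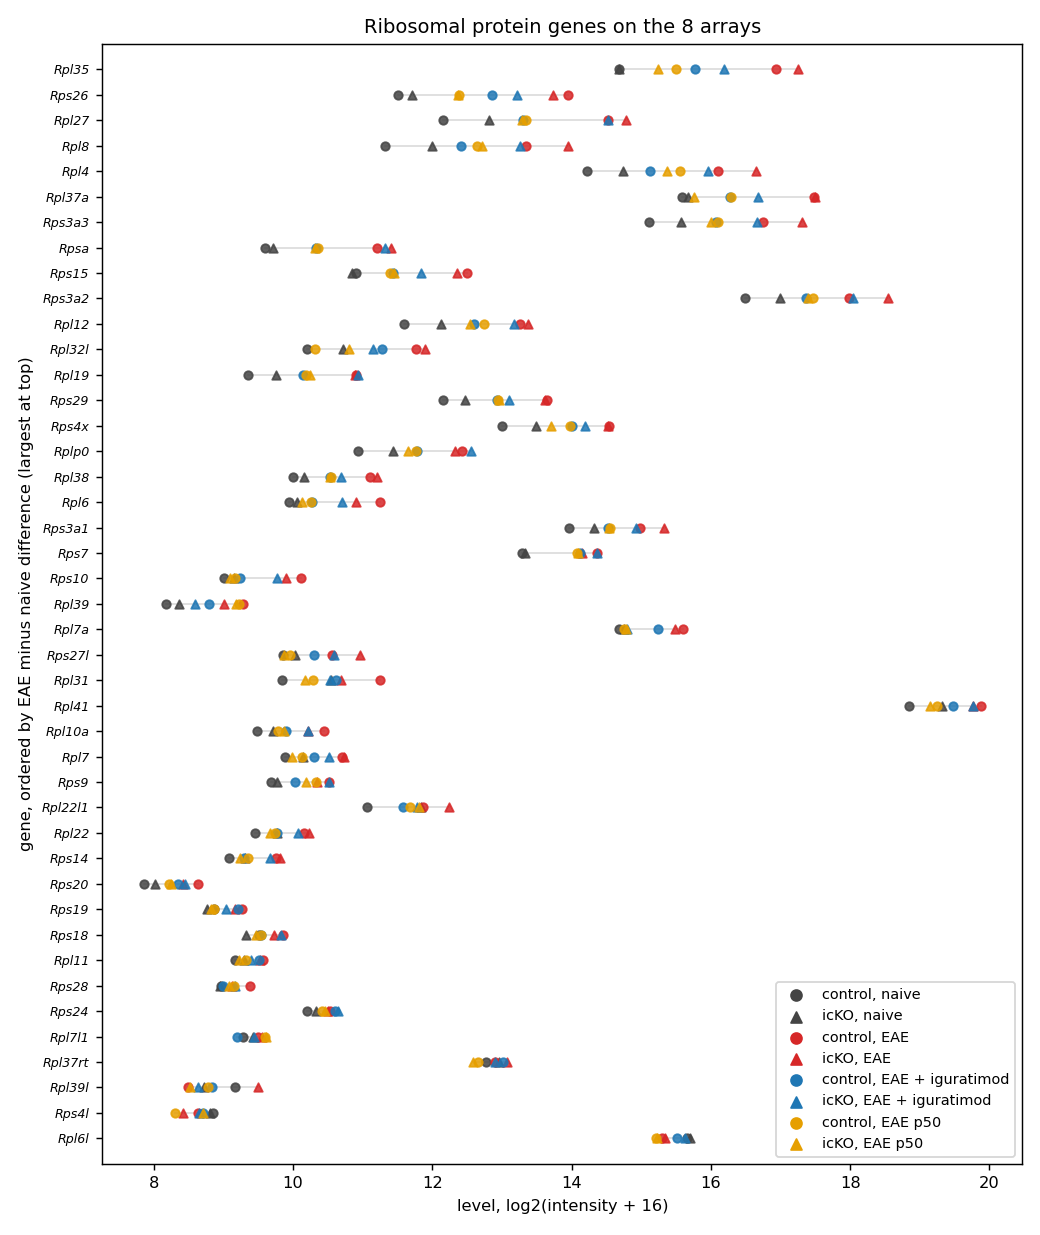
Level of each of the 43 tested members on the 8 arrays (x axis, log2(intensity + 16)), 1 row per gene, ordered by the difference between EAE and naive, with circles for control and triangles for icKO. The red EAE points lie to the right of the grey naive points for 39 members, from Rpl35 (2.41) at the top, and to the left for Rpl6l (-0.36) and Rps4l (-0.30) at the bottom.

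Among small subunit proteins 9 of 19 rose, with a median difference of 0.93. Rps26, which sits where the mRNA leaves the small subunit, read 11.50 on the control and 11.71 on the icKO naive array, 13.95 and 13.73 in EAE, 12.85 and 13.21 with iguratimod, and 12.38 and 12.36 on the p50 arrays. Both EAE arrays were the highest and both naive arrays the lowest, with no overlap between any of the 4 states. The difference between EAE and naive was 2.23 ± 0.17 (SE, 8 arrays, limma adjusted p = 0.0148), or 4.70-fold.

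Rps15, a protein of the head of the small subunit near the decoding site, read 10.91 and 10.84 in naive, 12.50 and 12.35 in EAE, 11.43 and 11.84 with iguratimod, and 11.40 and 11.45 on the p50 arrays, control first. The EAE arrays stood apart above all others, and the iguratimod and p50 arrays overlapped. The rise in EAE was 1.55 ± 0.17 (SE, limma adjusted p = 0.0214). Rps29, another protein of the head, read 12.16 and 12.47, 13.65 and 13.62, 12.93 and 13.10, and 12.94 and 12.95 in the same order. Its order of states was that of Rps15, with a rise of 1.33 ± 0.14 (SE, limma adjusted p = 0.0199).

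Rpsa, a small subunit protein also known as the laminin receptor, had 9.59 and 9.71 in naive, 11.21 and 11.40 in EAE, 10.33 and 11.32 with iguratimod, and 10.36 and 10.31 on the p50 arrays. The icKO array with iguratimod lay between the EAE arrays, while the control array with iguratimod lay with the p50 arrays. Rpsa rose by 1.66 ± 0.26 in EAE (SE, limma adjusted p = 0.0331). Its start window, printed above, holds no tract.

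Rps3a1 encodes a protein at the platform of the small subunit, beside the initiation factor eIF3, and rose by 1.01 ± 0.15 (SE, limma adjusted p = 0.0306). Its levels were 13.96 and 14.32 in naive, 14.98 and 15.32 in EAE, 14.52 and 14.92 with iguratimod, and 14.55 and 14.53 on the p50 arrays. Rps3a2 and Rps3a3, which RefSeq calls pseudogenes, rose by 1.52 ± 0.20 and 1.68 ± 0.20 (SE, limma adjusted p = 0.0261 and 0.0221). Copies this alike can share hybridising RNA, so which of the 3 loci was measured is uncertain.

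The other small subunit genes that rose were Rps4x, the X-linked form of S4, by 1.28, and Rps7, a protein that also binds MDM2, by 0.95. Rps7 stood at 13.29 and 13.33 in naive, 14.36 and 14.15 in EAE, 14.13 and 14.36 with iguratimod, and 14.08 and 14.09 on the p50 arrays. Its lowest arrays were the naive pair, and the other 6 lay between 14.08 and 14.36. The remaining 10 small subunit genes did not pass the test. They were Rps10 (0.93), Rps27l (0.82), Rps9 (0.70), Rps14 (0.59), Rps20 (0.58), Rps19 (0.40), Rps18 (0.38), Rps28 (0.30), Rps24 (0.26) and Rps4l (-0.30), given by their difference between EAE and naive. Rps19 and Rps24 had limma adjusted p-values of 0.136 and 0.309.

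Among large subunit proteins 10 of 24 rose, with a median difference of 0.85. Rpl35, which lies at the exit of the tunnel through which the new protein leaves, had the largest difference of all members. It read 14.68 on both naive arrays, 16.93 on the control and 17.25 on the icKO array in EAE, 15.77 and 16.19 with iguratimod, and 15.50 and 15.24 on the p50 arrays. The 4 states did not overlap, in the order EAE, iguratimod, p50, naive. The rise in EAE was 2.41 ± 0.19 (SE, limma adjusted p = 0.0163), or 5.31-fold. This probe set carries an identifier of another chromosome than the gene, and the one on the gene's own chromosome rose by 1.08.

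Rpl4, which lines the tunnel, read 14.22 and 14.74 in naive, 16.11 and 16.65 in EAE, 15.12 and 15.96 with iguratimod, and 15.55 and 15.36 on the p50 arrays. Every array of EAE was above every other, and the iguratimod and p50 arrays overlapped. Rpl4 rose by 1.90 ± 0.25 (SE, limma adjusted p = 0.0249). Rpl8, close to the site where amino acids are joined, rose by 1.98 ± 0.20 (SE, limma adjusted p = 0.0199), from 11.32 and 12.002 to 13.34 and 13.95. Its icKO array was above the control array in each of the 4 states.

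Rpl37a, a zinc-binding protein, read 15.58 and 15.67 in naive, 17.48 and 17.49 in EAE, 16.27 and 16.67 with iguratimod, and 16.28 and 15.76 on the p50 arrays. The EAE pair was the highest and the naive pair the lowest. The rise was 1.86 ± 0.22 (SE, limma adjusted p = 0.0228). Rpl38, known for its part in the translation of Hox mRNAs in the embryo, rose by 1.08 ± 0.12 (SE, limma adjusted p = 0.0214), from 10.003 and 10.16 to 11.11 and 11.21. With iguratimod it stood at 10.54 and 10.69, and on the p50 arrays at 10.54 and 10.53, all between naive and EAE.

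Rpl12 and Rplp0 form the base of the stalk that receives the elongation factors. Rpl12 rose by 1.46 ± 0.22 (SE, limma adjusted p = 0.0306), from 11.59 and 12.12 to 13.26 and 13.37. Rplp0 had a difference of 1.19 ± 0.25 (SE, limma adjusted p = 0.0681) and did not pass, with 10.93 and 11.44 in naive and 12.42 and 12.32 in EAE. Its highest array was icKO with iguratimod, at 12.56. The other stalk proteins, Rplp1 and Rplp2, were not analysed here.

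Rpl27 rose by 2.18 ± 0.30 (SE, limma adjusted p = 0.0277), Rpl19 by 1.34 and Rpl39, a very small protein of the exit tunnel, by 0.88. Rpl32l, a paralog of Rpl32, rose by 1.37 ± 0.19 (SE, limma adjusted p = 0.0289). The large subunit genes that did not pass were Rpl6 (1.08), Rpl7a (0.83), Rpl31 (0.78), Rpl41 (0.74), Rpl10a (0.73), Rpl7 (0.70), Rpl22l1 (0.61), Rpl22 (0.59), Rpl11 (0.32), Rpl7l1 (0.18), Rpl37rt (0.13), Rpl39l (0.05) and Rpl6l (-0.36), beside Rplp0. Rpl11, which with Rpl5 and the 5S RNA binds MDM2, had a limma adjusted p of 0.242.

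Paralogs are close relatives of a core ribosomal protein, often used in single tissues. Of the 8 tested paralogs 1 rose, Rpl32l, and their median difference was 0.15. Of the 33 members that RefSeq calls protein coding and that are no paralogs, 16 rose, with a median of 0.95 and all 33 above 0. The difference between paralogs and the others was not tested. Rpl6l, which RefSeq calls a pseudogene, read 15.66 and 15.69 in naive and 15.30 and 15.34 in EAE. It was lower on both EAE arrays, with a difference of -0.36 ± 0.11 (SE, limma adjusted p = 0.171). Rps4l, which RefSeq calls a transcribed pseudogene, read 8.85 and 8.80 in naive and 8.64 and 8.42 in EAE. Rpl39l, known from testis, read 9.17 and 8.72 in naive and 8.49 and 9.49 in EAE, so that its genotypes went opposite ways.

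The EAE calls needed both naive and both EAE arrays: leaving out any 1 of the 4 (naive control, naive icKO, EAE control, EAE icKO) left 0 members called, and 0 genes over the whole array, with the lone array of a state taken to vary like the others. The median member difference then lay between 0.80 and 1.01. Without both p50 arrays 12 members were called, and quantile normalization left 8. Calls over the whole array dropped too, from 608 genes higher to 208 and 223 in these settings.

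**Figure D2:**
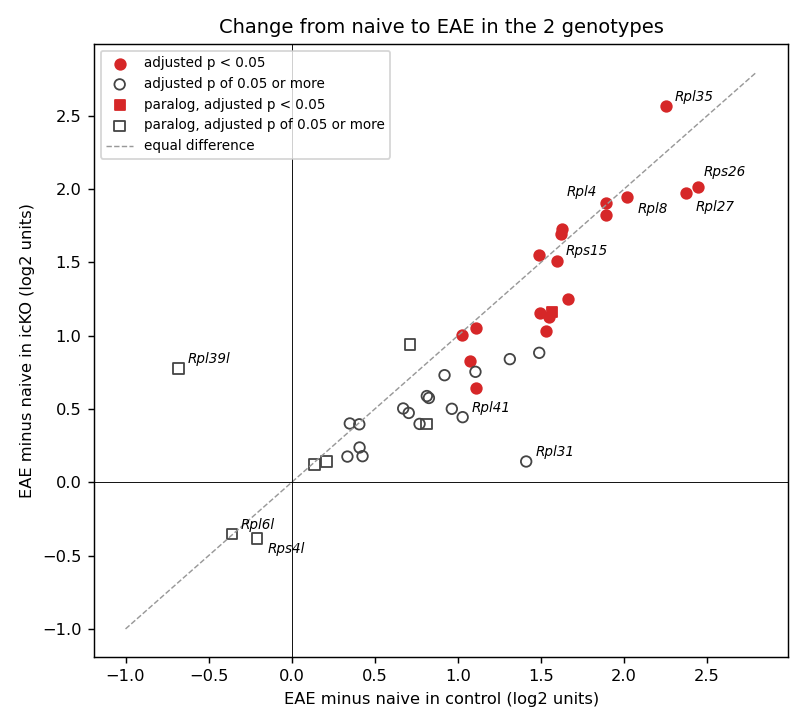
Difference between EAE and naive for each of the 43 tested members in control (x axis) and icKO mice (y axis), in log2 units, with filled red symbols for an adjusted p under 0.05, squares for paralogs and a dashed line of equal difference. Most points lie in the upper right, Rpl35 at 2.25 and 2.56 among them, while Rpl39l lies at -0.68 in control and 0.78 in icKO.

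The rise was seen in both genotypes. In control mice 40 members were above 0 (9567 of 18259 genes tested). There 33 members were at least 1.5-fold higher, a size reached by 10.5% of all genes. In icKO mice 41 members were above 0 (9727 of 18259 genes tested). There 26 members were at least 1.5-fold higher, a size reached by 11.7% of all genes. Across the 43 members the change in control and the change in icKO had a Pearson correlation of 0.86, and across the 18259 genes tested it was 0.54, values over genes that share arrays and are not independent. The difference of the EAE change between the genotypes had a member median of -0.19 (all genes 0.00). A limma model of this difference had 1 residual degree of freedom, which came from the iguratimod and p50 arrays alone. Its p-values do not measure the spread of the naive and EAE arrays and are not given. The largest differences in either direction were those of Rpl39l (1.46) and Rpl31 (-1.27).

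Rpl31, chosen after its values were seen, read 9.84 on the control and 10.54 on the icKO naive array, 11.25 and 10.68 in EAE, 10.62 and 10.54 with iguratimod and 10.28 and 10.17 on the p50 arrays. The naive and EAE arrays differed by 1.41 in control and by 0.14 in icKO, with no test within a genotype. Its probe set bears an identifier of another chromosome than the Rpl31 gene, which has no named probe set on its own.

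The study used iguratimod to ask what the drug does in EAE. With it the median level of the members stood between naive and EAE, which did not hold for every member. The member median level was 10.62 in control and 11.15 in icKO with iguratimod, against 11.25 and 11.40 in untreated EAE and 10.19 and 10.54 in naive. Compared with EAE, 0 members were called and 0.0% of all genes were, so the difference passed for no gene in limma, where the lowest adjusted p was 0.508. At an unadjusted p under 0.05, 17 members were lower (39.5%, all genes 5.58%) and 0 were higher (all genes 2.92%). The median member difference was -0.37, and both iguratimod arrays lay below both EAE arrays for 26 members (60.5%, all genes 18.9%). Without the control iguratimod array the median was -0.23. The neutrophil sum was lower than in EAE in the control and higher in the icKO. The monocyte sum was lower in both, with a list median of -0.97 and 5 of 9 markers at an unadjusted p under 0.05. The part of these cells in the member differences was not tested.

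The largest differences were those of Rpl35 (-1.11 ± 0.19), Rpl37a (-1.01 ± 0.22), Rpl4 (-0.84 ± 0.25) and Rpl8 (-0.81 ± 0.20), each with its SE. All 4 were lower on each iguratimod array than on each EAE array. On the probe set of its own chromosome Rpl35 differed by -0.51. The genes at the other end were Rpl6l (0.25), Rps4l (0.15), Rps24 (0.11) and Rps7 (-0.01). Rps24, a small subunit protein, read 10.53 and 10.51 in EAE and 10.60 and 10.65 with iguratimod.

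By genotype, the median difference between iguratimod and EAE was -0.49 in control mice and -0.20 in icKO mice. At least 1.5-fold lower were 17 members in control (6.81% of all genes) and 8 in icKO (6.75% of all genes). For Rpl27 the control arrays read 14.53 untreated and 13.29 treated, and the icKO arrays 14.78 and 14.52. The difference between the genotypes in this change had a member median of 0.22 (all genes -0.01). The limma model of this difference took its 1 residual degree of freedom from the naive and p50 arrays alone. Its p-values do not measure the spread of the EAE and iguratimod arrays and are not given. The largest differences in either direction were those of Rpl39l (-1.20) and Rpl27 (0.97). These changes and those from naive to EAE share the EAE arrays.

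**Figure D3:**
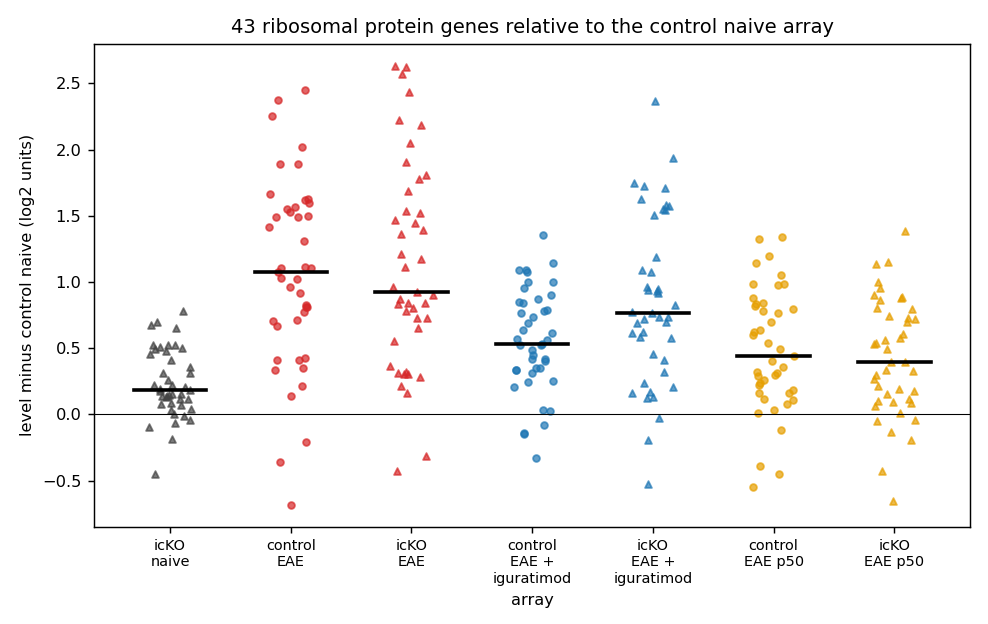
Level of each of the 43 tested members minus its level on the control naive array, in log2 units, for the other 7 arrays, with a black bar at the median. The medians are 0.19 for icKO naive, 1.07 and 0.92 for EAE, 0.53 and 0.76 with iguratimod and 0.44 and 0.39 on the p50 arrays, control first.

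On the p50 arrays most members lay a little above naive and well below EAE. Against naive, 0 of 43 members were called, beside 0.367% of all genes higher and 0.427% lower, and the lowest adjusted p of a member was 0.0673 in limma, for Rpl39. At an unadjusted p under 0.05, 18 members were higher (41.9%, all genes 12.3%) and 1 was lower, Rpl6l (all genes 8.24%). The median member difference was 0.29 (0.46 without the icKO naive array), and both p50 arrays were above both naive arrays for 27 members (62.8%, all genes 31.6%). Rpl8 (1.01 ± 0.20), Rpl4 (0.98 ± 0.25), Rpl39 (0.93 ± 0.15) and Rpl27 (0.84 ± 0.30) differed most, with SE. By genotype the median was 0.44 in control and 0.17 in icKO, with 19 and 7 members at least 1.5-fold higher (10.4% and 9.52% of all genes). Lowest were Rpl6l (-0.46), Rps4l (-0.32), Rpl39l (-0.29) and Rpl37rt (-0.25). With quantile normalization the split over all genes went from 67 higher and 78 lower to 300 and 117, and 1 member was called.

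Against EAE, 5 members fell on the p50 arrays and 0 rose (11.6%), where 1.62% of all genes fell and 1.08% rose. They were Rpl35 by -1.72 ± 0.19 (SE, limma adjusted p = 0.0162), Rps26 by -1.46 ± 0.17 (SE, adjusted p = 0.018), Rpl37a by -1.46 ± 0.22 (SE, adjusted p = 0.0374), Rpl32l by -1.26 ± 0.19 (SE, adjusted p = 0.0377) and Rps15 by -1.003 ± 0.17 (SE, adjusted p = 0.0442). The median member difference was -0.66, both p50 arrays lay below both EAE arrays for 38 members (88.4%, all genes 30.9%), and 30 members were lower at an unadjusted p under 0.05 (69.8%, all genes 11.0%). At least 1.5-fold lower were 19 members in control (7.23% of all genes) and 25 in icKO (11.4% of all genes). Other probe sets of these genes differed by -0.91 for Rpl35, on its own chromosome, and by -1.08 and 0.37 for Rps26, on other chromosomes. With the mean of probe sets per gene 4 members were called, without Rps26, beside 201 genes higher and 294 lower over the array. On the brightest probe sets Rpl39 (0.06) and Rpl7l1 (0.08) were the members with a difference above 0. This comparison shares the EAE arrays with the comparison of EAE and naive. The p50 pair also stands apart by its Xist level. A difference in sex and the p50 label therefore cannot be told apart in the comparisons with naive or EAE. Against EAE, the neutrophil markers had a median of -3.61 (0 of 9 called, 8 at an unadjusted p under 0.05 in limma) and the monocyte markers one of -1.43 (1 of 9 fell). Of 12 cell division genes 6 fell, and of 11 microglia markers 1 rose, at a median of 0.79. The part of these in the member differences was not tested. Leaving out either EAE array (control or icKO) or either p50 array left 0 members called, and leaving out either naive array left 2, Rpl35 and Rps26. Without the filter on dim genes 2 were called, beside 144 genes higher and 201 lower over the array. With quantile normalization 3 were called, where the split over all genes went from 198 higher and 295 lower to 342 and 195.

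Rpl39 stood at its EAE level on the p50 arrays. Its levels were 8.17 and 8.36 in naive, 9.29 and 9.01 in EAE, 8.79 and 8.59 with iguratimod, and 9.23 and 9.17 on the p50 arrays. The p50 pair lay between the EAE arrays. Rpl39 and Rps4x are the tested members on the X chromosome among those with a RefSeq window, and the p50 arrays are those with high Xist. Rps4x lay at 13.98 and 13.70 on the p50 arrays, below its EAE levels of 14.54 and 14.52 and above its naive levels of 13.005 and 13.49.

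Between the genotypes no member passed. Over the 4 states 0 members were called between icKO and control, with 0.0% of all genes called and a lowest adjusted p of 0.87 among members and 0.862 among all genes in limma. At an unadjusted p under 0.05, 5 members were higher in icKO (11.6%, all genes 1.92%) and 0 were lower (all genes 3.51%). They were Rpl8 (0.55 ± 0.14, SE), Rps3a2 (0.41), Rps3a3 (0.38), Rpl22l1 (0.37) and Rps3a1 (0.27). Rps3a1, Rps3a2 and Rps3a3 can share hybridising RNA, so they may not be separate readings in this count. The median member difference was 0.10, with 35 of 43 above 0 (all genes -0.02, with 7968 of 18259 above 0). It was 0.06 without either naive or either iguratimod array, 0.14 without either EAE array, 0.15 without either p50 array and 0.15 with quantile normalization. Lowest were Rpl7a (-0.12), Rps19 (-0.11), Rpl39 (-0.08) and Rps28 (-0.04).

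Within a state the genotypes are 1 array against 1, with no replicate check. The cell marker sums given above differed between them too. The neutrophil sum was lower in icKO in naive and EAE, and higher with iguratimod and on the p50 arrays. The monocyte sum was lower in icKO in naive and higher in the other states. The part of these cells in the genotype differences was not tested. In naive microglia the median member was 0.19 higher in icKO and 37 of 43 were above 0 (all genes -0.01, 8745 of 18259). At least 1.5-fold higher were 4 members (2.31% of all genes), Rpl22l1 (0.78), Rpl31 (0.70), Rpl8 (0.68) and Rpl27 (0.66), and at least 2-fold higher 0 (0.263% of all genes). None was 1.5-fold lower, which 8.23% of all genes were. The control naive array was the lowest of the 8 for 34 members. In EAE the median was -0.01 and 21 members were above 0 (all genes -0.01, 8734 of 18259). There 1 member was at least 2-fold higher (1.28% of all genes), Rpl39l with 1.005. At the 1.5-fold size 2 were higher, Rpl39l and Rpl8 (4.99% of all genes), and 0 lower (3.34%). Rpl31 was lowest there, at -0.57.

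With iguratimod the median member was 0.29 higher in icKO and 34 were above 0 (all genes -0.02, 8696 of 18259). At least 1.5-fold higher were 8 members (5.45% of all genes), and Rpl27 was at least 2-fold higher (1.22, a size reached by 1.27% of all genes), followed by Rpsa (0.99), Rpl8 (0.84) and Rpl4 (0.84). No member was 1.5-fold lower (8.48% of all genes), and Rpl7a was lowest, at -0.44. On the p50 arrays the median was -0.07 and 14 members were above 0 (all genes -0.02, 8240 of 18259). Of the members 0 were at least 1.5-fold apart (1.89% of all genes higher, 1.45% lower). Rpl32l (0.49) and Rpl37a (-0.52) marked the ends.

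Some members have more than 1 probe set, and the levels on these did not always change alike. Affymetrix identifiers of this array carry a chromosome, which equals the RefSeq chromosome of the gene for 99.1% of 30935 named probe sets. For 6 members (Rpl7a, Rpl12, Rpl27, Rpl31, Rpl35 and Rpl41) the brightest probe set carries another chromosome, and Rpl12 and Rpl31 have none on their own. Rpl27 rose by 2.18 in EAE on its brightest probe set, and on the probe set of its own chromosome, at 9.03 and 9.17 in naive and 9.85 and 9.86 in EAE, the difference was 0.76. The p50 arrays lay 0.84 above naive on the former and -0.01 on the latter.

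Rpl41, which encodes one of the shortest proteins known, differed by 0.74 on its brightest probe set and by 0.35 on that of its own chromosome. Its brightest probe set read 19.87 and 19.77 in EAE, close to the highest level on those arrays (19.93), which limits the difference it can show. For Rpl7a the values were 0.83 and 0.61. Rps26 has 3 probe sets, with differences of 2.23 on its own chromosome and 1.94 and -0.16 on others. All but the last of these 11 probe sets had a mean above 0 in EAE. Taking for each gene the brightest probe set of its own chromosome, 18 of 41 members tested were called higher in EAE, and 608 of 18002 genes. Of these, 17 were among the 19 called on the brightest probe set. Rps27l was added, Rpl27 did not pass and Rpl12 could not be tested.

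**Figure D4:**
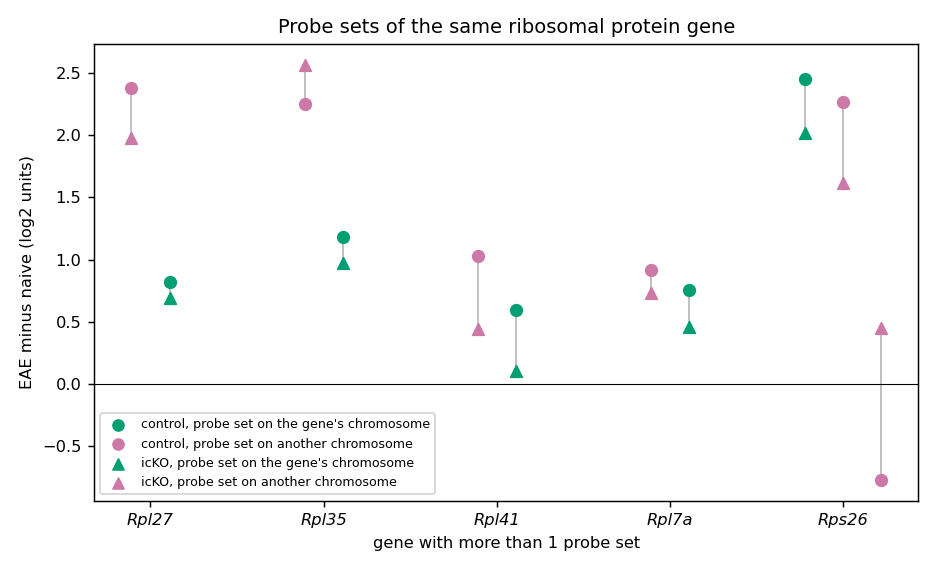
Difference between EAE and naive in control (circles) and icKO mice (triangles), in log2 units, for every probe set of the 5 members with more than 1, in green for the gene's own chromosome and pink for another. Rpl35 and Rpl27 reach above 1.9 on the probe set of another chromosome and lie between 0.69 and 1.19 on their own, and 1 probe set of Rps26 goes from -0.77 in control to 0.45 in icKO.

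Other genes of protein synthesis were read beside the members. Of 193 tested pseudogenes with ribosomal protein names 100 rose in EAE and 0 fell (51.8%), with a median of 1.05, and 33 of them fell on the p50 arrays against EAE. Rpsa-ps9 had the largest difference, 2.91 ± 0.29 (SE, limma adjusted p = 0.0198). Pseudogene copies resemble the members and their probe sets can read the same RNA, so these are no separate evidence for the members. Fau, which holds the small subunit protein S30 in a fusion, had a difference of 1.34 ± 0.26 (SE, limma adjusted p = 0.056).

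Translation factors work on the same ribosomes. Of 6 elongation factors 1 rose, Eef2, which moves the ribosome along the mRNA, by 1.48 ± 0.19 (SE, limma adjusted p = 0.0249), and the median was 0.61. On the p50 arrays Eef2 stood at 12.78 on both, within its EAE levels of 12.63 and 13.06 and above 11.38 and 11.35 in naive. Of 23 initiation factors 5 rose, the eIF3 subunits Eif3e, Eif3f, Eif3h and Eif3k and the poly(A)-binding protein Pabpc1 (1.87 ± 0.31, SE, limma adjusted p = 0.0369), with a median of 0.59. Of 14 other mRNAs known to carry a TOP tract 2 rose, Eef2 and Pabpc1, with a median of 0.93.

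The lists for ribosome assembly in the nucleolus and for the separate ribosome of mitochondria had medians close to 0. Of 36 assembly factors 0 passed in either direction, with a median of 0.08 and 6 at an unadjusted p under 0.05 in limma, and Npm1, a nucleolar chaperone, was highest at 1.07 (limma adjusted p = 0.065). Of 65 mitochondrial ribosomal proteins 0 passed in either direction, with a median of 0.11 and 7 at an unadjusted p under 0.05. Of 16 growth control genes 1 rose, Max, the partner of Myc, by 1.09. Larp1, which binds TOP tracts, had a difference of 0.74 (limma adjusted p = 0.0502), and Myc one of 0.08. Of 5 tested genes of p53 sensing 2 rose, Cdkn1a by 1.53 and Ccng1 by 1.16, and Mdm2 stood at 0.14. Among 12 cell division genes 6 rose, Mki67 among them. None of these differences between lists was tested.

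**Figure D5:**
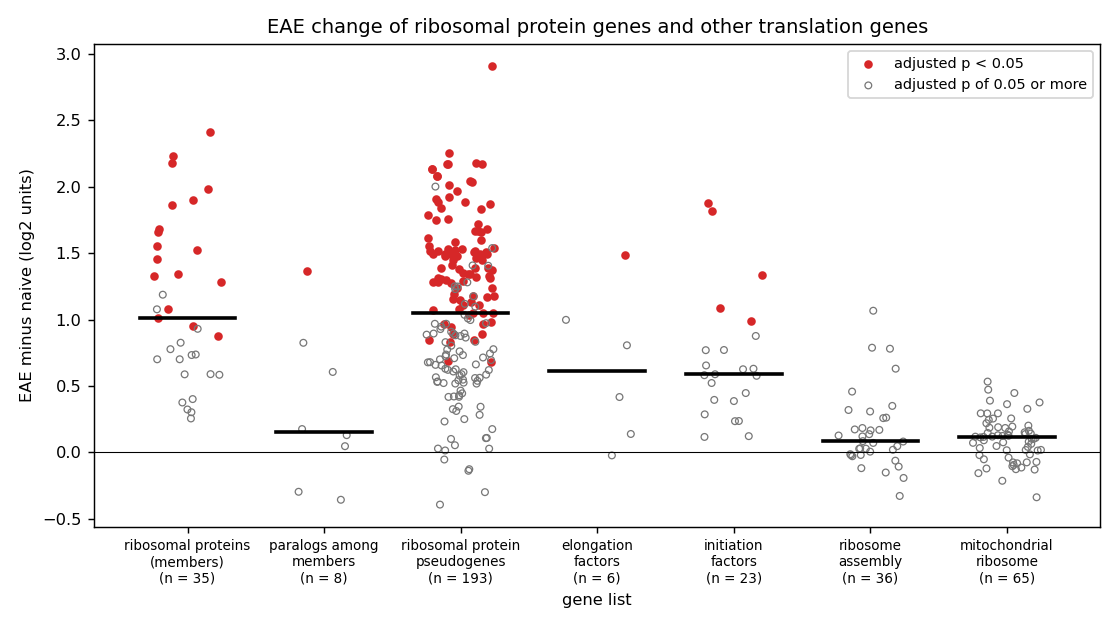
Difference between EAE and naive in log2 units for each tested gene of 7 lists (x axis, with n), filled red for an adjusted p under 0.05, with a black bar at the median. Ribosomal protein genes and their pseudogenes reach above 2 units with 100 of 193 pseudogenes called, while 0 of 36 assembly factors and 0 of 65 mitochondrial ribosomal proteins were called.

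The start-site tracts were set beside the differences. Of 21 tested members with a tract near the annotated start 8 rose, with a median difference of 0.83, and of 13 without one 7 rose, with a median of 1.19. Rpl35 and Rps26, with the largest rises on their brightest probe sets, hold a tract in the windows printed above. Rps15 and Rpsa rose without one. The Rpl35 rise was read on a probe set of another chromosome than its window, and its own chromosome's probe set rose by 1.08. Rpl7a, Rpl12, Rpl27, Rpl31 and Rpl41 were also read on probe sets of another chromosome in these counts. Across the 43 members the naive brightness of the probe set and the difference in EAE had a Pearson correlation of 0.36. This describes probe sets that share the naive arrays, and as brightness is not comparable between them, it does not rank genes by expression.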

How the data were processed

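RNA of microglia was isolated with TRIzol, amplified and labelled with the GeneChip WT Pico kit and read on Affymetrix arrays, per the labels' protocols. The authors deposited 1 linear intensity per probe set and array; Affymetrix Expression Console is named in the submitters' processing notes, and its version, the normalization and the genome build are not given in the sources used here. Of 65956 probe sets, 31245 had 1 gene symbol in the platform annotation after updating 1478 symbols through RefSeq, 1505 had several and 33206 were unnamed here.

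From the deposited intensity values log2(intensity + 16) was taken, the brightest probe set kept per gene, and limma 3.58.1 (R 4.3.3) fitted. The fit was also run on simulated data with the same spread for every gene, unlike the arrays, and no result rests on that run. Named genes were the 12 lowest adjusted p-values among calls and the 4 highest and 4 lowest differences per comparison, the 5 brightest and dimmest, the paralogs, and the leading genes of each list; others are listed to account for every member. The members, the gene lists and the tests were chosen with earlier results of these data known. Alternatives covered filters, normalizations, pseudocounts, probe sets and arrays left out. No detection calls were used.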

Additional observations from a re-analysis of the deposited data

Results flagged for a closer look

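The array holds 52 probe sets that name a ribosomal protein symbol of the rule beside other symbols, which were not used as members because no single gene can be named for them. Of these, 51 lay above the filter, and their median difference between EAE and naive was 0.93, with 50 above 0. They were set aside in all comparisons of the members, but they were read on the same 8 arrays and can share RNA with the members, so they are no separate evidence. Against EAE their median was -0.27 with iguratimod and -0.51 on the p50 arrays. By genotype the median change from naive to EAE was 0.94 in control and 0.80 in icKO mice. No test was made on them.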

How the results depend on the processing

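The labels carry no replicate numbers and each group has 1 array, so arrays could be paired by genotype alone. The fit reported does compare the states within genotype through its genotype term. Without that term 22 members were called in EAE against naive, 6 in p50 against EAE and 2 in p50 against naive. Over all genes, 631, 206 and 222 were called higher there and 57, 345 and 113 lower, in that order. Members called in EAE against naive ranged from 0 to 20 when 1 array was left out, and were 12 without both p50 arrays and 8 with quantile normalization. For p50 against EAE they ranged from 0 to 6 with 1 array left out, and were 2 without the filter and 3 with quantile or cyclic loess normalization. For p50 against naive 1 was called with the filter at the 70th percentile, quantile normalization or median centring. Over all genes, 255 were called higher and 115 lower with that filter, 300 and 117 with quantile normalization, and 299 and 105 with centring. In EAE against naive, 208 genes rose without both p50 arrays and 223 with quantile normalization. In p50 against EAE, 201 genes fell without the filter, 195 with quantile and 235 with cyclic loess normalization. Leaving out 1 array moved the median member difference from -0.46 to -0.23 for iguratimod, from 0.21 to 0.46 for p50 against naive and from -0.79 to -0.46 for p50 against EAE, which was -0.46 with quantile normalization. The icKO minus control median was 0.34 in naive with quantile normalization, and in EAE 0.014 with the stricter filter or the mean of probe sets, 0.0053 with quantile and 0.0198 with cyclic loess normalization, in place of -0.01. Members at least 2-fold higher in icKO were, in EAE, 0 with quantile normalization or a pseudocount of 64. With iguratimod they were 5 with quantile normalization, 2 with median centring or cyclic loess, and 0 with the mean of probe sets or the own-chromosome probe set. At 1.5-fold they were 4 in naive, 2 in EAE and 8 with iguratimod.

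Single genes changed sign where the difference was small. With 1 array left out, Rpl39l ran from -0.61 to 0.70 in EAE against naive and from -0.61 to 0.0224 in p50 against naive, Rps7 from -0.16 to 0.14 and Rps4l from -0.0144 to 0.31 for iguratimod, Rps4l from -0.28 to 0.23 and Rpl39 from -0.0738 to 0.18 in p50 against EAE, and Rps28 from -0.12 to 0.0297 between genotypes. With quantile normalization Rps7 was 0.0558 for iguratimod, Rps24 0.086 and Rps4l 0.0062 in p50 against EAE, and Rpl7a 0.057 between genotypes. On its own chromosome's probe set Rpl27 was -0.0056 in p50 against naive. The cause of these shifts was not tested. Own-chromosome probe sets, leaving out both iguratimod arrays and the genotype-difference model were chosen after seeing the data.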
